A study of Sus scrofa with 6 samples.

Results

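The miR-148 and miR-152 family was taken from a table of small RNA sequencing of pig milk and milk exosomes. Its members were chosen by name alone, as every entry whose mature name starts with miR-148a, miR-148b or miR-152, and 4 of the 245 entries did so. They were miR-148a-3p, miR-148a-5p, miR-148b-3p and miR-152. The table holds 6 libraries of Rongchang pigs, a Chinese breed, in 2 groups of 3, milk and milk exosome. Exosomes are vesicles with a membrane, released by cells. No treatment, genotype or age is given for the milk samples, and the labels do not say whether a shared number marks a shared animal. P-values therefore measure the spread between these samples, which may be technical. The series text also names small intestine of piglets, which no sample label does.

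miRNAs are short RNAs that guide Argonaute proteins to messenger RNAs and repress them, mainly through pairing of the seed, bases 2 to 8 from the 5′ end. A mature miRNA is cut from one arm of a hairpin, and the suffixes 5p and 3p name the arm. The miR-148 and miR-152 family is known in human and mouse cells for repressing the DNA methyltransferase DNMT1. miR-148a is also known in mouse liver for acting on cholesterol metabolism, and it is among the abundant miRNAs of milk in several mammals.

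The sequences are shown as deposited, with T for U and the seed in capitals, because they show what joins the 3p members and where they part.
miR-148a-3p: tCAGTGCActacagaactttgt
miR-148b-3p: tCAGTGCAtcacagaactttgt
miR-152: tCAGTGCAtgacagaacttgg
miR-148a-5p: aAAGTTCTgagacactccgact
The 3 members miR-148a-3p, miR-148b-3p and miR-152 shared 1 seed, and no other of the 238 distinct sequences in the table had it at these bases, so 1.26% of the sequences carried it. Counted from 1 at the 5′ end of miR-148a-3p, miR-148b-3p differed from it by C9T and T10C and equalled it at 20 of 22 positions. miR-152 differed from miR-148a-3p by C9T, T10G and T20G and equalled it at 18 of 21 positions. All the substitutions thus lay outside the seed, and positions 9 and 10 just after it held most of them. The sequence of each member was listed under 1 name. This does not show whether reads were divided between entries of like sequence. The 3p members had a GC content of 40.9%, 40.9% and 47.6% in the order above, against a median of 50.0% over all distinct sequences.

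miR-148a-5p comes from the other arm of the miR-148a hairpin and has a seed of its own, which 1 of the 238 sequences carried. The longest run of Watson-Crick pairing between the arms was 9 bases, shown here in capitals because it shows how the arms lie against each other.
miR-148a-5p: AAAGTTCTGagacactccgact
miR-148a-3p: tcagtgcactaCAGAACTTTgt
The run covered bases 1 to 9 of the 5p arm and bases 12 to 20 of the 3p arm, so the 3p seed lay outside it. In the RefSeq annotation of the pig assembly Sscrofa11.1, used here for names and neighbours only since the build behind the table is not given in the sources used here, MIR148B lies within the span of COPZ1 and MIR152 within that of COPZ2. COPZ1 and COPZ2 encode the zeta subunits of the COPI vesicle coat. MIR148A lies within no annotated gene there.

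The 7 letters of the family seed occurred elsewhere in 6 of the remaining sequences, at other positions, which brought the share of sequences that hold them anywhere to 3.78%. In miR-130a, miR-130b and miR-301 they stood at bases 1 to 7, 1 base nearer the 5′ end. miR-130b is shown with these letters in capitals, because it is also the miRNA whose values ran most like those of miR-148a-3p.
miR-130b: CAGTGCAatgatgaaagggcat
In miR-20b and miR-106a the letters began at base 12, and in miR-139-5p at base 5. A sequence with more than 1 name is counted here under 1 name, and the miR-106a entry had the same group means as miR-17-5p. A match of letters is a description and shows no shared target.

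Before the members' values, the libraries themselves have to be described. The deposited values are a normalized abundance, and the most frequent value above 0 in a library was taken as the worth of 1 read, which gives an estimate of the reads behind each value. Milk 1 and milk exosome 3, called deep here, held 9197175 and 8085173 such reads, and the other 4 libraries 1926 to 9492. A single read was worth 0.0759 in milk 1, 0.0937 in milk exosome 3 and between 9.01 and 19.7 in the 4 others, called shallow here. Milk 1 and milk exosome 3, of different groups, had the closest values of any pair, with a Pearson correlation of log2 values of 0.993 across 141 miRNAs, which are not independent replicates. Whether the group labels of these 2 libraries are right is in doubt, and this doubt extends to each value below that sets milk exosome against milk. Erythrocyte miRNAs, 5 of 5 listed, made up 89.7% of the listed signal in milk 1 and 89.2% in milk exosome 3, against 2.91% to 12.3% elsewhere. Muscle miRNAs made up 55.5% of milk exosome 2 and 0.00259% to 10.6% of the other libraries. The 5 epithelial and mammary miRNAs found in the table, of 11 listed, summed to at most 1.25% of any library, and 4 of the 5 were at 0 in milk exosome 2. The markers found thus made up a small part of each library, from 0.00109% in milk 1 to 1.25% in milk 3. The listed markers not in the table have no values here, and how the table was filtered is not given. Fewer cells or vesicles of a type and less RNA in each cannot be told apart in such samples.

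miR-148a-3p was the leading member in each library, and its deposited level was even apart from 1 library. Milk 1, 2 and 3 had values of 1532, 1334 and 2130, while milk exosome 1, 2 and 3 had 2333, 118 and 1444. Milk exosome 2 was the low one, and the other exosome libraries lay within or above the range of milk, so the groups overlapped. The value in milk exosome 2 rested on 6 reads, with an exact Poisson interval at 95% of 43.3 to 257. That in milk 2 rested on 93 reads, with an interval of 1076 to 1634. The low value of milk exosome 2 thus lay below the next lowest beyond counting error. Intervals on reads cover counting error only, since the reads carry no molecular identifiers.

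Among the 5 libraries other than milk exosome 2, a choice made after the values were seen, miR-148a-3p spanned 1334 to 2333, a ratio of 1.75. On the log2(value + 1) scale its range over these libraries was 0.81, against a median range of 4.60 over the 141 tested miRNAs, of which 3 had a smaller one. Its fewest reads among these libraries were 93, in milk 2. A tested miRNA could have few or no reads in some shallow libraries, which widens its range by counting error. The comparison of ranges thus also depends on level. The library left out was the lowest one for miR-148a-3p, and for other miRNAs it need not be the most extreme. The count of 3 is therefore favoured by that choice. With milk exosome 2 included, the ratio of highest to lowest was 19.8 and the log2 range 4.29, against a median of 5.73, and 46 of the 141 had a smaller range. The evenness of miR-148a-3p therefore held for the deposited values of 5 libraries and not for the sixth. It did not hold for its share of the listed signal, which ran from 0.191% to 7.995% over the same 5 libraries.

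**Figure D1:**
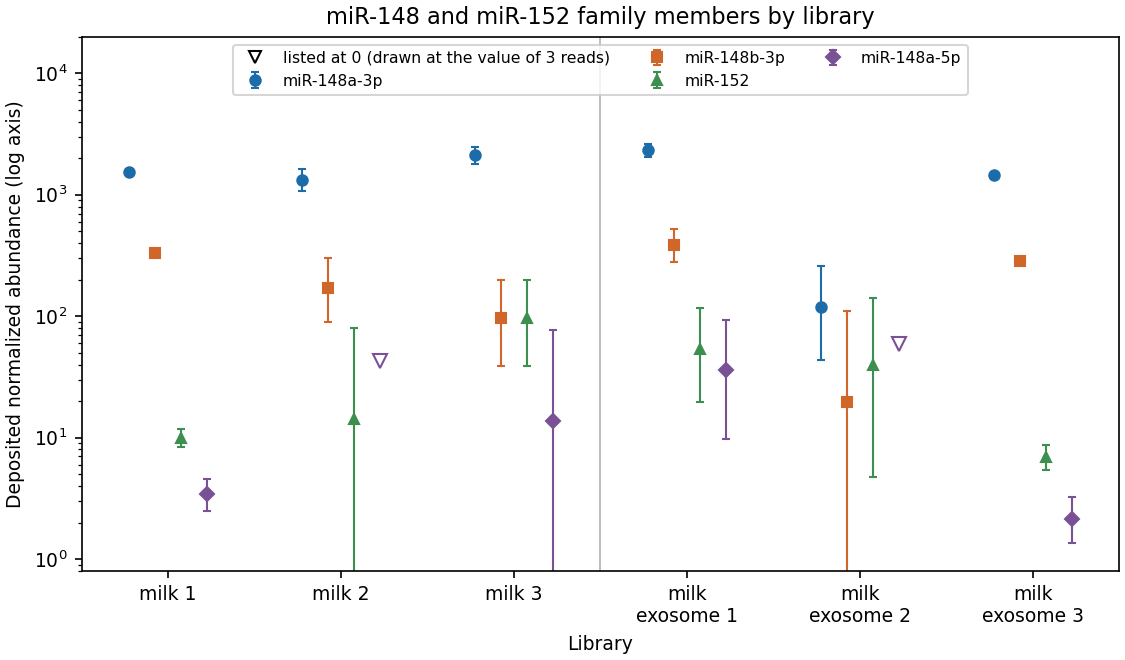
Deposited normalized abundance (log axis) of the 4 family members in each library, with exact Poisson intervals at 95% on estimated reads as bars and open triangles for values listed at 0, drawn at the worth of 3 reads. miR-148a-3p lies between 1334 and 2333 in 5 libraries and at 118 in milk exosome 2.

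miR-148b-3p differs from miR-148a-3p at 2 bases and ran below it in each library. Milk 1, 2 and 3 had values of 334, 172 and 96.8, while milk exosome 1, 2 and 3 had 387, 19.7 and 284. Milk exosome 2 was again the lowest, here with 1 read and an interval of 0.498 to 110, and the groups overlapped. Its values in milk 2 and milk 3 rested on 12 and 7 reads, so that their intervals of 88.9 to 301 and 38.9 to 199.5 overlapped. Highest and lowest differed by a ratio of 19.7. Over the 5 libraries other than milk exosome 2 the log2 range was 1.99, and 15 of the 141 tested miRNAs had a smaller one. That count is favoured by leaving out the library in which miR-148b-3p was lowest.

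miR-152 had the lowest level of the 3p members in most libraries, and its order over the libraries was another. Milk 1, 2 and 3 had values of 10.02, 14.3 and 96.8, while milk exosome 1, 2 and 3 had 54.0, 39.3 and 6.93. Milk 3 was the highest and the deep libraries the lowest, and each group held low and high values. The shallow libraries gave it 1 to 7 reads each, against 132 in milk 1 and 74 in milk exosome 3. In milk 3 its interval of 38.9 to 199.5 lay above that of 8.39 to 11.9 in milk 1. The value in milk 2, 1 read, had an interval of 0.363 to 79.9 that overlapped those of all the other libraries.

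miR-148a-5p, the arm that is usually degraded, was scarce. Milk 1, 2 and 3 had values of 3.42, 0 and 13.8, while milk exosome 1, 2 and 3 had 36.0, 0 and 2.15. The values of 0 in milk 2 and milk exosome 2 have exact Poisson intervals at 95% that reach 52.9 and 72.5. Each limit is more than any value measured for it, as is the worth of 3 reads there, 43.0 and 59.0. It reached 10 in 2 libraries only and did not pass the filter on low values. In a fit of all 245 entries with no filter its log2 fold change, milk exosome minus milk, was 0.28 (SE 1.99, 95% interval -3.96 to 4.52, limma adjusted p = 0.994). As a share of both arms of miR-148a, the 5p arm made up 0.223% (exact Clopper-Pearson interval at 95% of 0.162% to 0.298%) in milk 1 and 0.149% (0.0945% to 0.223%) in milk exosome 3. It made up 1.52% (0.416% to 3.85%) in milk exosome 1, on 4 reads, an interval above both of the deep libraries. In milk 3 it had 1 read beside 154 of the 3p arm, with an interval of 0.0163% to 3.54%.

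The order of levels within a library was miR-148a-3p, miR-148b-3p and miR-152 in milk 1, milk 2, milk exosome 1 and milk exosome 3. In milk 3 miR-148b-3p and miR-152 were level, at 7 reads each. In milk exosome 2 miR-152 had 2 reads and miR-148b-3p 1, which does not separate them. These are levels of mature RNAs of 21 or 22 bases, and no correction for length was made. The order is one of deposited values, since how evenly each sequence was captured was not tested.

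miR-148a-3p held most of the family signal. Of the milk libraries, milk 1 had 81.5% (95% Clopper-Pearson interval 81.0% to 82.0%), milk 2 had 87.7% (79.9% to 93.3%) and milk 3 had 91.1% (85.8% to 94.9%). Of the exosome libraries, the first had 83.0% (78.4% to 87.0%), the second 66.7% (29.9% to 92.5%) and the third 83.1% (82.6% to 83.7%). The lowest share belonged to the library with 9 family reads, and its interval held the shares of all the others.

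**Figure D2:**
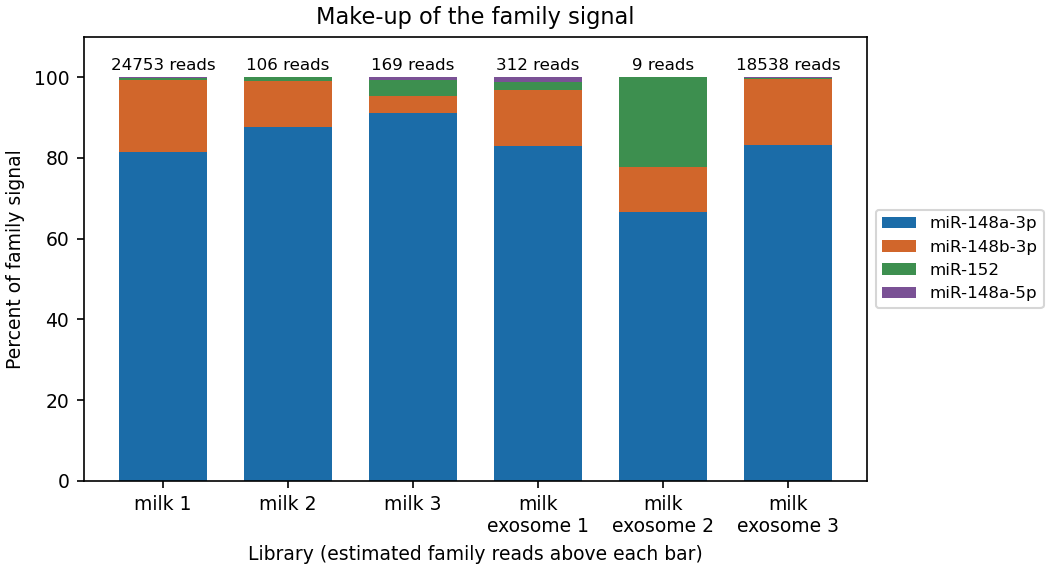
Percent of the family signal taken by each of the 4 members in each library, with the estimated number of family reads above each bar. miR-148a-3p takes 66.7% to 91.1%, and the bar of milk exosome 2 rests on 9 reads.

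The ratio of miR-148a-3p to miR-148b-3p was 4.58 (4.44 to 4.74) in milk 1 and 5.09 (4.90 to 5.30) in milk exosome 3, close to each other although apart beyond counting error. In milk 1 the estimated reads of these members were 20175.5 and 4401.5, not whole numbers. How reads were assigned between like sequences was not tested, and the intervals do not cover it. Milk 2 had a ratio of 7.75 (4.23 to 15.5), milk exosome 1 of 6.02 (4.35 to 8.52) and milk exosome 2 of 6 (0.728 to 276). Milk 3 stood out with 22.0 (10.4 to 55.6), an interval above those of the deep libraries and of milk exosome 1. The ratio of miR-148a-3p to miR-152 differed more between libraries. It was 153 (129 to 183) in milk 1 and 208 (166 to 265) in milk exosome 3, against 22.0 (10.4 to 55.6) in milk 3 and 43.2 (19.6 to 119) in milk exosome 1. Milk 2 had a ratio of 93 (16.3 to 3712), which does not separate it from any of these, and milk exosome 2 one of 3 (0.536 to 30.4). The deep libraries thus held less miR-152 beside miR-148a-3p than 3 of the 4 shallow ones.

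Rank and share of miR-148a-3p differed between the libraries. It ranked 2 of 245 entries in milk 3, 7 in milk exosome 1, 12 in milk 2, 21 in milk 1, 24 in milk exosome 3 and 48 in milk exosome 2. Of all listed signal it took 0.219% (0.216% to 0.222%) for milk 1, 2.11% (1.70% to 2.58%) for milk 2 and 7.995% (6.82% to 9.30%) for milk 3. For milk exosome 1 it took 2.73% (2.41% to 3.08%), for milk exosome 2 it took 0.153% (0.0562% to 0.333%) and for milk exosome 3 it took 0.191% (0.188% to 0.194%). By share, milk exosome 2 could not be told from the deep libraries, whereas by deposited level it lay far below them.

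The same share was also taken of the listed signal without the erythrocyte miRNAs. It was then 2.14%, 2.40% and 8.93% in milk 1, 2 and 3, and 2.85%, 0.158% and 1.77% in milk exosome 1, 2 and 3. The deep libraries rose to near milk 2, and milk exosome 2 was now the lowest by far. In milk exosome 2 the muscle miRNAs held 55.5%, and their part in its low value was not tested.

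**Figure D3:**
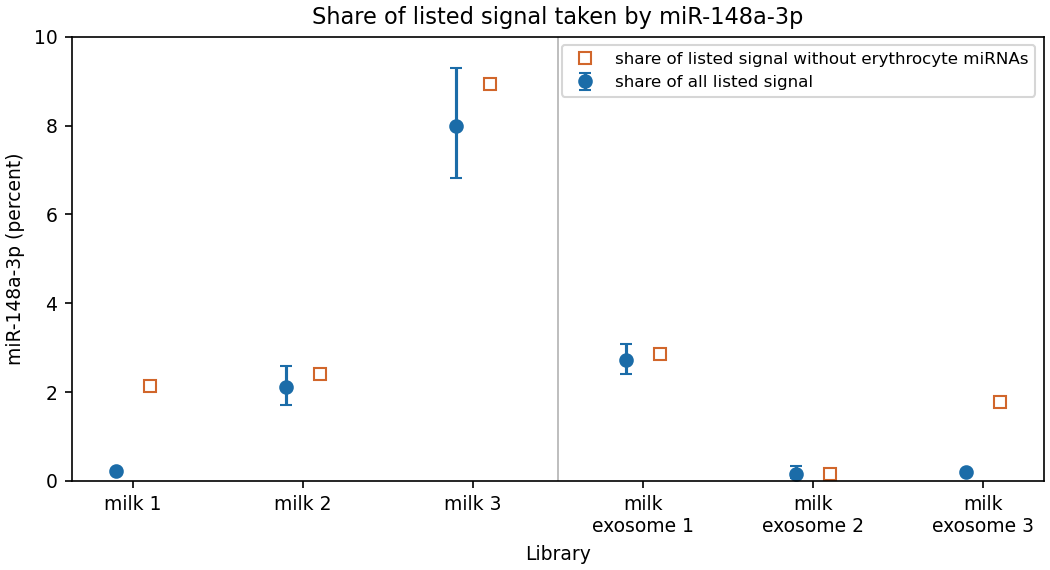
Percent of the listed signal taken by miR-148a-3p in each library, of all entries (filled, with exact Clopper-Pearson intervals at 95%) and without the erythrocyte miRNAs (open). Milk 3 is highest at 7.995% and 8.93%, and milk 1 and milk exosome 3 move from 0.219% and 0.191% to 2.14% and 1.77%.

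The study set milk exosomes against milk, and no family member passed in this comparison. The test was limma on log2(value + 1) over the 141 miRNAs at 10 or more in at least 3 libraries, and 3 of the 4 members were among them. Of all the miRNAs tested 0 passed at an adjusted p of 0.05 (0%), and 0 had an unadjusted p under 0.05, so the family's count of 0 of 3 equals the background. All tested miRNAs together had a median of 0.34 in log2 fold change.

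miR-148a-3p had a mean level of 1665 ± 415 (SD, n = 3) in milk and 1298 ± 1115 (SD, n = 3) in milk exosome. Its log2 fold change was -1.15 (SE 1.37, 95% interval -4.33 to 2.03, limma adjusted p = 0.997). The negative value rested on milk exosome 2: without that library the log2 fold change was 0.17 (95% interval -2.64 to 2.98, limma adjusted p = 0.954), when the median of all miRNAs was 1.00. Without milk exosome 1 it was -1.98.

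miR-148b-3p had a mean level of 201 ± 121 (SD, n = 3) in milk and 230 ± 190 (SD, n = 3) in milk exosome. Its log2 fold change was -0.44 (SE 1.49, 95% interval -3.91 to 3.03, limma adjusted p = 0.997), so the mean of logs and the mean of levels differ in sign. It was 0.90 without milk exosome 2 and 0.017 without milk 1, and it was -0.99 without milk exosome 3 and -1.22 without milk exosome 1.

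miR-152 had a mean level of 40.4 ± 48.9 (SD, n = 3) in milk and 33.4 ± 24.1 (SD, n = 3) in milk exosome. Its log2 fold change was 0.030 (SE 1.72, 95% interval -3.96 to 4.02, limma adjusted p = 0.997). It was 1.00 without milk 3 and -0.57 without milk 1. For each of the 3 members the interval spans differences of over 2 log2 units either way, so the data show neither a difference between milk and exosome nor that they are alike.

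Rescaling to a common total brought the median over all miRNAs to -0.29. The log2 fold changes of miR-148a-3p, miR-148b-3p and miR-152 were then -1.84, -1.14 and -0.62. Set against the median of each setting, the 3 stood at -1.49, -0.78 and -0.31 on the deposited values and at -1.55, -0.85 and -0.32 after rescaling. Rescaling multiplies all values of a library by 1 factor, so these distances could change only through the added 1 and are no check on scaling. The groups did not overlap for 2 of the 141 tested miRNAs (1.42%), and for 0 of the 3 family members among them.

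**Figure D4:**
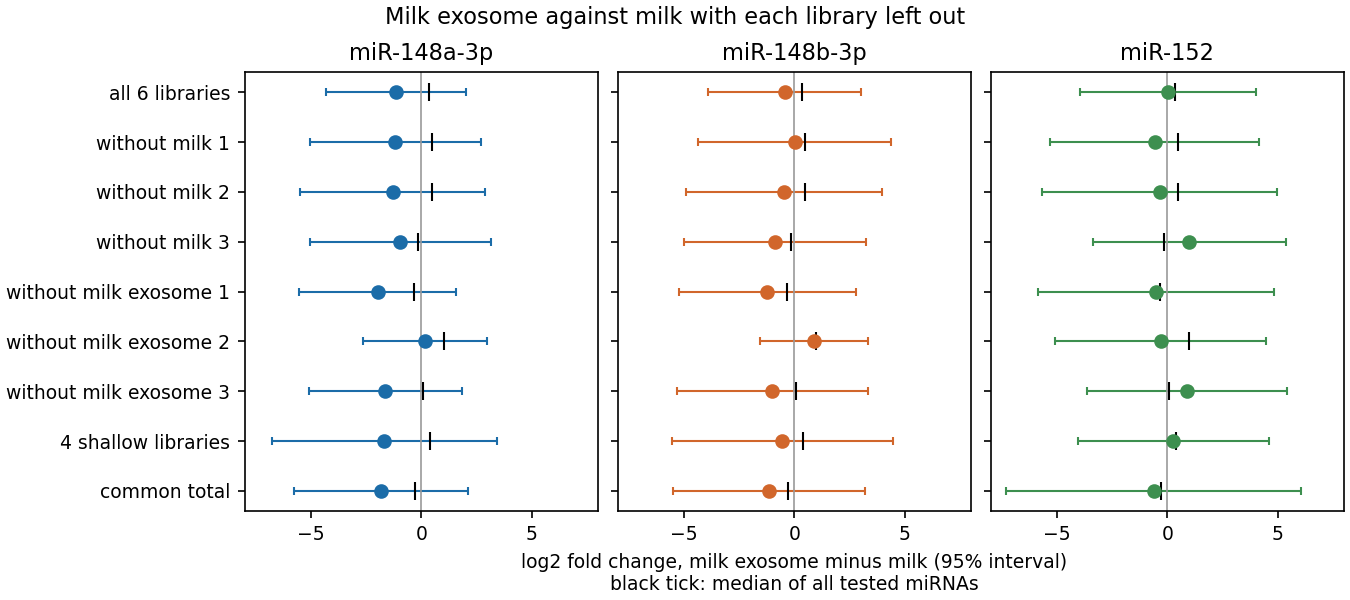
Log2 fold change of milk exosome minus milk with 95% limma intervals for the 3 tested members, over all 6 libraries, with each library left out, in the 4 shallow libraries and after rescaling to a common total. Black ticks mark the median of all tested miRNAs; each interval crosses 0, and miR-148a-3p moves from -1.15 to 0.17 without milk exosome 2.

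The share of listed signal taken by miR-148a-3p was 3.44% ± 4.06 (SD, n = 3) in milk and 1.02% ± 1.48 (SD, n = 3) in milk exosome. The difference, exosome minus milk, was -2.42 percentage points (two-sided exact permutation test, p = 0.50, where 3 against 3 cannot go below 0.10). Without milk 3 the difference was -0.14 percentage points, so that library set most of its size.

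Between the deep libraries, 1 from each group, the members' values can be set side by side without a test, since 2 single libraries show nothing about the groups. Milk exosome 3 minus milk 1 on the log2 scale was -0.09 for miR-148a-3p, on 15414 and 20175 reads. It was -0.24 (-0.30 to -0.17) for miR-148b-3p, on 3027 and 4401 reads, and -0.53 (-0.96 to -0.11) for miR-152, on 74 and 132 reads. For miR-148a-5p it was -0.67 (-1.46 to 0.09), on 23 and 45 reads, an interval that includes 0. The 109 entries with at least 100 reads in both had a median difference of 0.14, with quartiles of -0.18 and 0.46, and 44 were lower in milk exosome 3. In the 4 shallow libraries alone, 2 per group, the log2 fold changes of miR-148a-3p, miR-148b-3p and miR-152 were -1.68, -0.54 and 0.28, and none passed (limma adjusted p = 0.974 for each).

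Outside the family, the miRNAs whose log2 values ran most like those of miR-148a-3p over the 6 libraries were miR-130b, miR-363 and miR-374b-5p, with Pearson correlations of 0.912, 0.907 and 0.901 among 140 compared. The values of miR-130b were 50.2, 43.0 and 27.7 for milk 1, 2 and 3, and 414, 0 and 48.5 for milk exosome 1, 2 and 3. miR-363, on the erythrocyte list, had milk values of 109, 57.4 and 27.7 and exosome values of 117, 0 and 169, in the same order. miR-374b-5p had milk values of 64.2, 14.3 and 27.7 and exosome values of 36.0, 0 and 87.5. All 3 were listed at 0 in milk exosome 2, the library in which miR-148a-3p was low and 3 reads are worth 59.0, so these likenesses share that 1 point and values of few reads. Over the 5 other libraries, taken after the values were seen, the correlations were 0.54, -0.27 and -0.068. Within the family, miR-148b-3p came sixth in that order with 0.866, and miR-152 was 83rd with -0.045. These values too rested on milk exosome 2: without it they were -0.057 for miR-148b-3p and 0.88 for miR-152. The correlation of miR-148b-3p with miR-152 was -0.41 over the 6 libraries.

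Of 23 miRNAs listed as typical of milk, 17 names were in the table, with miR-148a-3p among them. Of their entries 15 were tested, and 0 passed, 10 with a positive and 5 with a negative log2 fold change. Their median was 0.41 against 0.34 for all, and miR-148a-3p was 1 of the 5 negative ones. The list summed to 38.8% of the signal of milk 3, 12.6% to 20.8% of the other shallow libraries and 2.11% and 2.40% of the deep ones. Over all tested miRNAs 57 of 141 were negative on the deposited values, 93 at a common total and 31 without milk exosome 2. In the same order the milk list had 5, 11 and 5 of 15 negative, the leukocyte list 4, 4 and 0 of 5 and the erythrocyte list 4, 4 and 2 of 5. The muscle list had 0, 1 and 1 of 5 negative and the epithelial and mammary list 2, 3 and 2 of 3. Of each list 0 passed on the deposited values.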

How the data were processed

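Small RNA was sequenced from 3 milk and 3 milk exosome samples (total RNA by Trizol, TruSeq Small RNA kit, single-end reads on an Illumina HiSeq, per the labels' protocols). The signal deposited by the authors is a normalized miRNA abundance per library, not pooled. How they aligned, annotated, normalized and filtered, and on which build, was not given in the sources used here. Exact repeats, 34 of the 279 labelled lines, were dropped. The 7 sequences with more than 1 name have equal values under each name, and shares are of all 245 entries. A second table of 1382 entries has 6 value columns that match no label and were not used. Its names include 5 further miR-148 or miR-152 entries, not analysed here.

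Reads were estimated from the most frequent value above 0, the smallest where several tied, and 70.9% to 88.0% of values above 0 were whole multiples within 0.01, so read numbers are estimates. The test, run in R 4.3.3, was limma 3.58.1 (intensity trend), Benjamini-Hochberg adjusted over 141 miRNAs. A fold change is on the log2(value + 1) scale, where the added 1 understates the change of low miRNAs. Shares used exact permutation tests and Clopper-Pearson intervals (Python 3.11.15, numpy 2.4.6, pandas 2.3.3, scipy 1.17.1), and figures matplotlib 3.10.9. The fit was tested on simulated data, where recovery of known changes was required only at a spread far smaller than that of these data. The members, the lists and the rule for named miRNAs (all members, and the 3 others most correlated with miR-148a-3p) were chosen with earlier results of these data known. Alternatives were other scalings, filters and pseudocounts, no trend, summed names, a replicate block, each library left out and the 4 shallow libraries alone. Correlations without milk exosome 2 and signs of the lists under other settings were added after the values were seen.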

Additional observations from a re-analysis of the deposited data

How the results depend on the processing

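The number of miRNAs called was 0 under each of the 17 other settings. Of these, the other filters, no trend, summed names and the replicate block could not change the log2 fold change of a tested member. Signs kept under those settings therefore show nothing about stability. miR-148a-3p kept its negative sign in 16 of 17 and ran from -1.98 to 0.17 with 1 library left out, the positive value being that without milk exosome 2. miR-148b-3p kept its sign in 15 of 17 and ran from -1.22 to 0.90, and it was 0.017 without milk 1 and 0.90 without milk exosome 2. miR-152 changed sign in 7 of 16 settings: it was -0.62 at a common total, -0.75 at a common total without the erythrocyte miRNAs and -0.083 recentred on the median. It was -0.57 without milk 1, -0.34 without milk 2, -0.51 without milk exosome 1 and -0.29 without milk exosome 2, and with 1 library left out it ran from -0.57 to 1.00. With values of 100 or more required miR-152 was not tested. The cause of these changes was not tested, and limma adjusted p-values of the members ran from 0.912 to 0.999. The share difference of miR-148a-3p ran from -4.03 to -0.14 percentage points with 1 library left out, and was -2.90 without the erythrocyte miRNAs, -2.45 with 1 entry per distinct sequence and -3.61 in the shallow libraries. The labels do not say that a number marks an animal, and the deviations of same-numbered libraries from their group means correlated at -0.25, 0.39 and -0.48, so the numbers were not used as pairs. With the replicate block 0 miRNAs were called, the log2 fold change of miR-148a-3p was -1.15 (SE 2.05), and the share difference was -2.42 percentage points (exact p = 0.75). The block cannot change either estimate in this balanced layout, and an exact test on 3 differences cannot reach 0.05. Depth limits what the shallow libraries can show for miR-152 and miR-148a-5p, which had 0 to 7 reads in each.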
